A study of Mus musculus with 6 samples.

Results

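Serpins were measured on microarrays in microglia of mice with acute ischemic stroke. The 9 genes described here are Serpinb1b, Serpinb1a, Serpinb2, Serpinb6a, Serpinb6b, Serpinb9, Serpine2, Serpina3n and Serping1. Every probe whose accession maps to one of these symbols was taken, which gave 10 of the 56605 probes that are not controls, and 9 of 23462 named genes. Serpinb1b was chosen by its lower level in the mPGC-1α arrays, so its difference is a description and carries no test. The other members were taken as relatives or functional counterparts, with earlier results of these data known.

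The microglia came from 3 control samples (PGC-1α f/f) and 3 mPGC-1α samples, all labelled male and 10 weeks old, on a C57BL/6 background, with 1 array per sample. Both groups carried the loxP-flanked PGC-1α allele with an eGFP tag, and both underwent transient occlusion of the middle cerebral artery after tamoxifen. The mPGC-1α mice, littermates of the controls, also carried the tamoxifen-inducible Cre recombinase in the Cx3cr1 gene, which drives it in microglia and in other cells that use this promoter. The labels do not give the time between stroke and isolation, nor whether animals were pooled, and p-values measure only the spread between these samples.

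Serpins are protein inhibitors of proteases. A flexible loop acts as bait, the protease cuts it, and the serpin changes shape and traps the enzyme in a covalent complex that is then cleared. Clade B serpins stay largely inside the cell and protect it from its own granule and lysosomal proteases. The secreted serpins of the other clades act on clotting, plasmin formation, complement and leukocyte proteases around vessels and neurons, all of which are active after stroke.

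The probe sequences are not in the files used here, so the DNA upstream of the genes is shown instead for the 3 members whose 2 groups of arrays did not overlap. These windows are the 250 bases before the start of the transcript, 5′ to 3′ on the gene's strand, from RefSeq with build GRCm38.p6. Capitals mark CpG dinucleotides.
Serpinb1b, chr13:33083853-33084102, plus strand: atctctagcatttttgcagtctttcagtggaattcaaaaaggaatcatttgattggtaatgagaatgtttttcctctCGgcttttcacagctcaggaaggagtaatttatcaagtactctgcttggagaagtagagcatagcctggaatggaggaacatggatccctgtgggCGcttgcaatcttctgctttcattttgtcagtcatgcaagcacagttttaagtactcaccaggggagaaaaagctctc
Serpina3n, chr12:104406458-104406707, plus strand: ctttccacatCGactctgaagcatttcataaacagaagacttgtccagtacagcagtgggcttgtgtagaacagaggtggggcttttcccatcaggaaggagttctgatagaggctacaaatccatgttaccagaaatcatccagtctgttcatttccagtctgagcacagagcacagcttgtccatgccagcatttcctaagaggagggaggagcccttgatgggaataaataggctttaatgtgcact
Serpine2, chr1:79858666-79858915, minus strand: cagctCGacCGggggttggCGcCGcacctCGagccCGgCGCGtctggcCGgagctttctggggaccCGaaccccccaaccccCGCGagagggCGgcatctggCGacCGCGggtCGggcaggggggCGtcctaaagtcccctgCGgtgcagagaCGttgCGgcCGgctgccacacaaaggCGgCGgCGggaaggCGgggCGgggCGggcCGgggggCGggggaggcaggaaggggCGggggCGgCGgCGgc
The window of Serpinb1b holds 2 CpG and that of Serpina3n holds 1, against a median of 6 over 32851 promoter windows of the same length. Serpine2 has a CpG-rich start with 34, and 96.5% of the windows hold fewer. The Serpine2 window is 78.8% G and C, that of Serpina3n 46.4% and that of Serpinb1b 42%. Of the 3 windows, 1 is rich in CpG and the other two are poor in it. The table holds 9 windows for 7 of the members, as Serpinb2 and Serpinb6a have 2 each. Serpinb1a and Serping1 have no entry. The letters AAGGTCA, the half-site of the estrogen-related receptors that PGC-1α coactivates, were looked for on both strands. They are in 0 of the 9 windows and in 4.08% of all windows, and the longer form TNAAGGTCA, which contains the half-site, is in 0 and in 1.14%. The STAT motif TTCNNNGAA is in 1 window each of Serpinb2 and Serpinb6a (7.02% of all windows). The core of the interferon response element is in the window of Serpinb9 and in 1 of Serpinb6a (2.98% of all). TATAAA is in both overlapping windows of Serpinb2 (12.4% of all). A match or its lack describes these letters in this window only.

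Levels are given as log2 of the array intensity minus the 75th percentile of that array, so that 0 is the level at that percentile. Levels of different probes cannot be set against each other, because probes differ in how brightly they bind. Between 71% and 86.5% of the probes were well above background on an array. Microglial genes were bright in all 6 samples, with P2ry12, the receptor used for the selection, between 3.94 and 4.40 and Tmem119 between 5.15 and 5.52, marked spots included. Ppargc1a, which encodes PGC-1α, was not higher in the mPGC-1α samples. Its difference was -0.31 (SE 0.24) with limma's adjusted p of 0.798, and a second probe gave -0.41. Whether these probes detect the transgene was not tested, as their sequences are not in the files used here, so the genotype label could not be checked this way. Cx3cr1, into which the Cre was inserted, was lower without overlap, by 1.23 on the log2 scale in its tested probe. In a second Cx3cr1 probe, not tested as 3 of its arrays were marked, the groups overlapped. Its levels, marked spots included, were 3.96, 4.41 and 3.75 in the controls and 3.57, 3.67 and 3.90 in mPGC-1α. Xist lay between -0.57 and -0.11 on 5 arrays and at -4.83 on control array 2. The Y-linked genes Ddx3y (-2.69) and Eif2s3y (-0.81 and 0.03 in its probes) were far higher on control array 2 than on the other 5. The first of these Eif2s3y probes was well above background on 2 control arrays. The 5 arrays with Xist go against the label male, and the difference of each tested member is therefore also given without control array 2.

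Serpinb1b, a mouse paralog of the leukocyte elastase inhibitor, showed the widest gap of the members. Its levels were -1.72, -1.48 and -1.43 in the control arrays and -3.80, -3.01 and -3.41 in the mPGC-1α arrays. All 3 mPGC-1α arrays lay below all 3 controls. The means were -1.54 ± 0.16 and -3.41 ± 0.39 (SD, n = 3 each), a difference of -1.87 (SE 0.29), or 3.65-fold lower in mPGC-1α. The probe was well above background on all 6 arrays. The difference was -1.81 on the first slide, which held arrays 1 and 2 of each group, and -1.98 on the second, which held array 3 of each. Without control array 2 it was -1.84. Of all probes with 6 values, 4.66% lay lower in every mPGC-1α array than in every control array, and nothing is read from the place of Serpinb1b among them. In bulk samples, fewer cells with a transcript and less of it per cell cannot be told apart.

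**Figure D1:**
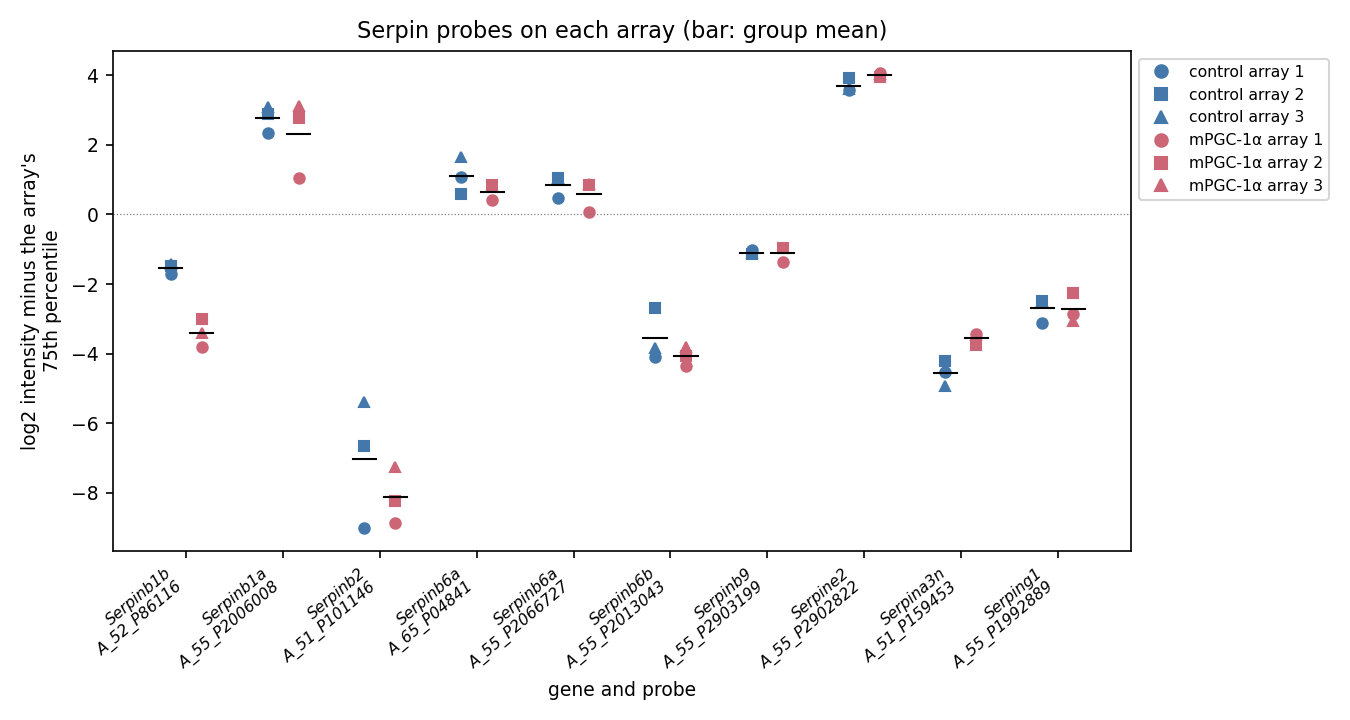
Level of each serpin probe on each array (vertical axis, log2 intensity minus the 75th percentile of the array) by gene and probe. Points are arrays, blue for control and red for mPGC-1α, and bars are group means, and the mPGC-1α arrays of Serpinb1b lie between -3.80 and -3.01, below the control arrays between -1.72 and -1.43.

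Serpinb1a is the mouse counterpart of the human leukocyte elastase inhibitor and blocks neutrophil elastase, proteinase 3 and cathepsin G. Its levels were 2.35, 2.89 and 3.08 in the controls and 1.05, 2.78 and 3.12 in mPGC-1α. Array 1 of mPGC-1α was far below the rest, array 2 fell among the controls and array 3 lay just above them. The difference was -0.46 (SE 0.47), with limma's adjusted p of 0.848. It was -0.71 on the first slide and 0.05 on the second. Without mPGC-1α array 1 the difference turned to 0.18 (SE 0.28), and without control array 2 it was -0.40. The paralog Serpinb1c, close by on the chromosome and named for its likeness to these genes after its values were seen, gave 1.06, 0.77 and 2.24 in the controls and -0.40, 0.96 and 1.36 in mPGC-1α, also lowest on mPGC-1α array 1. Without probe sequences, cross-binding between transcripts of Serpinb1a, Serpinb1b and Serpinb1c was not tested.

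The neutrophil proteases that Serpinb1a inhibits were low on the same array. Elane, neutrophil elastase, had levels of 0.41, 0.91 and 1.59 in the controls and -1.67, 1.02 and 1.20 in mPGC-1α. Prtn3, proteinase 3, had 1.81, 1.90 and 2.94 against -0.30, 2.66 and 2.52. Ctsg, cathepsin G, had 1.87, 2.44 and 3.00 against 0.03, 2.88 and 2.54. Each of these proteases was lowest on mPGC-1α array 1, next lowest on control array 1, and within the range of the controls on the other mPGC-1α arrays. On mPGC-1α array 1, Serpinb1a lay 1.72 log2 units below its control mean, Elane 2.64, Prtn3 2.52 and Ctsg 2.41. Over all arrays the differences were -0.79 (SE 0.68) for Elane, -0.59 (SE 0.70) for Prtn3 and -0.62 (SE 0.65) for Ctsg, with limma's adjusted p of 0.812, 0.87 and 0.849. Without mPGC-1α array 1 the differences turned to 0.14, 0.38 and 0.27. The mean level of 10 neutrophil marker genes was also lowest there, at 2.09 against 2.84 to 3.41 in the controls and 3.55 in each of the other mPGC-1α arrays. The part of neutrophil RNA in the Serpinb1a value was not tested.

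**Figure D2:**
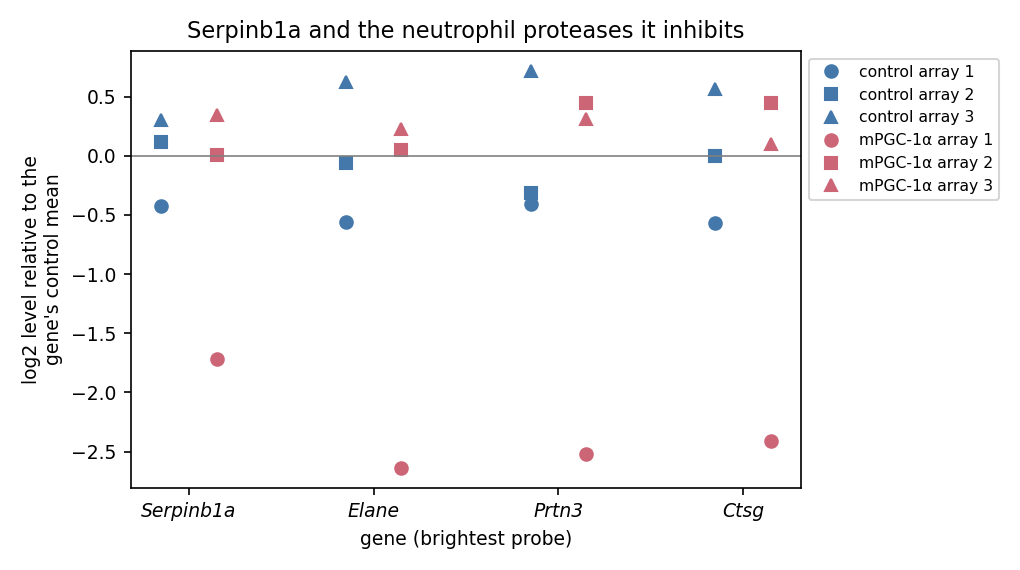
Level of Serpinb1a, Elane, Prtn3 and Ctsg on each array, as a log2 difference from the control mean of the same probe (vertical axis). Points are arrays, blue for control and red for mPGC-1α, and mPGC-1α array 1 is lowest for all 4 genes, 1.72 below the control mean for Serpinb1a and 2.64 below it for Elane.

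Serpinb1b was chosen by its lower level in the mPGC-1α arrays, so nothing is read from its shape beside that of these genes. Its level on mPGC-1α array 1, -3.80, was also the lowest of the 6, and arrays 2 and 3 of mPGC-1α lay below every control as well. Without mPGC-1α array 1 the difference was -1.67, which could not turn because the groups do not overlap.

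Serpinb6a inhibits cathepsin G and other trypsin-like and chymotrypsin-like proteases, and protects cells from leaked lysosomal enzymes. Its brighter probe had levels of 1.08, 0.58 and 1.65 in the controls and 0.41 and 0.86 in mPGC-1α arrays 1 and 2, while the spot of mPGC-1α array 3 was marked as an outlier and left out. Its other probe had 0.47, 1.04 and 1.04 against 0.07, 0.83 and 0.87. In both probes the groups overlapped, with the lowest level on mPGC-1α array 1. The differences were -0.47 (SE 0.34) and -0.26 (SE 0.28), with limma's adjusted p of 0.785 and 0.854. The first was -0.73 without control array 2, with an adjusted p of 0.197, and -0.20 with the replicate number as a block.

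Serpinb6b, one of several mouse relatives of Serpinb6a, was dim. It had levels of -4.11, -2.68 and -3.84 in the controls and -4.37, -4.06 and -3.81 in mPGC-1α. Control array 2 was high and the other 5 arrays lay close together. The difference of -0.54 (SE 0.41, limma's adjusted p 0.793) rested on that array and was -0.11 without it.

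Serpinb9 inhibits granzyme B and shields cytotoxic lymphocytes and antigen-presenting cells from it. Its levels were -1.03, -1.15 and -1.12 in the controls and -1.37, -0.97 and -0.97 in mPGC-1α, with the controls inside the range of mPGC-1α. The difference was -0.01 (SE 0.23, limma's adjusted p 0.998), with a 95% interval of -0.53 to 0.52, and -0.03 without control array 2. Gzmb, its target, was dim and gave -0.03 (SE 0.41).

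Serpinb2, plasminogen activator inhibitor type 2, a product of activated macrophages, was not well above background on any of the 6 arrays. Its levels ran from -9.02 to -5.38 in the controls and from -8.87 to -7.26 in mPGC-1α. On every array this was below the lowest level of a probe well above background, which lay between -6.74 and -4.96. Serpinb2 was therefore not tested, and no fold is given.

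Serpina3n, a secreted acute-phase serpin that inhibits granzyme B and cathepsin G and is known as a gene of reactive astrocytes, lay higher in mPGC-1α. Its levels were -4.54, -4.21 and -4.94 in the controls and -3.43, -3.76 and -3.46 in mPGC-1α. All 3 mPGC-1α arrays lay above all controls. The probe was dim but well above background on every array. Control array 3 lay near the lowest level of a probe well above background on that array (-5.23). The means were -4.56 ± 0.36 and -3.55 ± 0.19 (SD, n = 3 each), a difference of 1.01 (SE 0.32, 2.02-fold, 95% interval 0.29 to 1.74). Limma's p was 0.0113 unadjusted and 0.684 adjusted over all probes, so the difference did not pass the threshold. It was 0.78 on the first slide and 1.48 on the second. Without control array 2 it was 1.19, with an adjusted p of 0.0659. Under the normexp background correction with quantile normalization it was 0.43. The exact permutation test of 3 against 3 arrays cannot go below 0.1.

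Serpine2, protease nexin 1, which inhibits thrombin and the plasminogen activators and is made by glia, was bright. Its levels were 3.56, 3.92 and 3.60 in the controls and 4.05, 3.94 and 4.04 in mPGC-1α. The groups did not overlap, but control array 2 and mPGC-1α array 2 were nearly equal. The difference was 0.31 (SE 0.18, 1.24-fold) with limma's adjusted p of 0.741, and 0.43 (adjusted p 0.159) without control array 2.

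Serping1, the C1 inhibitor, blocks the complement proteases C1r and C1s, plasma kallikrein and coagulation factor XIIa. Its levels were -3.12, -2.48 and -2.49 in the controls and -2.87, -2.26 and -3.05 in mPGC-1α. The groups overlapped throughout, and the difference of -0.03 (SE 0.33) had a 95% interval of -0.76 to 0.71 and limma's adjusted p of 0.991. It was 0.24 on the first slide, -0.56 on the second and 0.08 without control array 2. C1s1, which encodes its target C1s, gave -0.17 (SE 0.29).

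**Figure D3:**
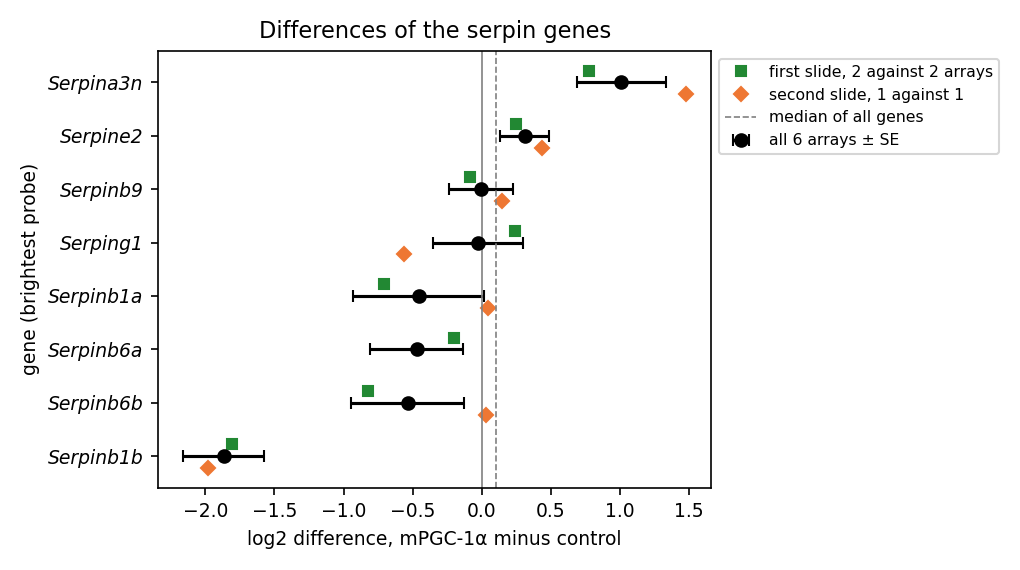
Difference between mPGC-1α and control on the log2 scale (horizontal axis) for the brightest probe of the 8 serpin genes tested, with bars of ± 1 SE and the values within each slide. Serpinb1b lay at -1.87 and Serpina3n at 1.01. The slides must fall on the same side of 0 where the groups do not overlap, as for Serpinb1b, Serpina3n and Serpine2. They fell on opposite sides for Serpinb1a, Serpinb6b, Serpinb9 and Serping1.

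Of the 10 serpin probes, 9 were bright enough to be tested, and the 8 of them that were not Serpinb1b gave 0 with an adjusted p below 0.05 in limma. This was also the count over all 40745 probes tested (0%), of which 2921 (7.17%) had an unadjusted p below 0.05. Without control array 2, 2102 of 39288 probes tested passed, and 0 of the 8 serpin probes did. Nothing is read from a count of 0 among so few probes. Over all 6 arrays, that of Serpina3n alone among the 8 serpin probes had an unadjusted p below 0.05 in limma. Of the 6 members other than Serpinb1b with 6 values in their brightest probe, 2 (Serpina3n and Serpine2) lay higher and 0 lower without overlap. Of all 16191 genes with 6 values in their brightest probe, 11.9% did not overlap, 1373 higher and 558 lower. The share of all probes with 6 values that did not overlap was 11.5%, and 6.8% lay higher in mPGC-1α. Besides Serpinb1b, Serpina3n differed by at least 2-fold without overlap, as did 1.62% of the genes with 6 values in their brightest probe. Apart from Serpinb1b, 5 of the 7 tested members were below 0 and 2 above (28.6%), with a median difference of -0.03. Over all 18222 genes tested, 64% were above 0 and the median was 0.11.

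The other serpins were counted as a group. Of 54 further serpin genes on the array, 30 were tested, each counted by its brightest probe. The median difference of these was 0.22, with 21 above 0 (70%, beside 64% of all genes) and 9 below. Of them 0 had an adjusted p below 0.05 in limma and 2 an unadjusted p below 0.05. Over all 18222 genes tested, 622 had such an unadjusted p and were higher, and 488 were lower. Of the 28 further serpins with 6 values, 3 did not overlap, all higher (10.7%, beside 11.9% of all genes). Among them, and named after their values were seen, are Serpini1 and Serpinb9e. Serpini1, neuroserpin, the neuronal inhibitor of tissue plasminogen activator, was 0.72 higher (SE 0.31, limma's adjusted p 0.690). Its other probe was well above background on only 1 array and was not tested. The means of that probe were -6.09 in the controls and -7.62 in mPGC-1α. Serpinb9e, a dim relative of Serpinb9, was 0.37 higher (SE 0.32). Probes of Serpinb8, also named after its values were seen, differed in direction. Its brightest probe was 0.39 higher, while its dimmer probe was 2.04 lower without overlap (limma's adjusted p 0.684).

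In the cluster of clade B serpins on chromosome 13, Serpinb1b lies between Serpinb9b and Serpinb9c in the RefSeq order. From Serpinb1a to Serpinb6a the cluster holds 17 genes, 11 of them tested. The nearest tested genes were Serpinb9 on one side at -0.01 and Serpinb9e on the other at 0.37. The differences of the 10 tested genes other than Serpinb1b ran from -0.72 for Serpinb1c to 0.37 for Serpinb9e.

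The proteases that serpins inhibit were described as a list of 36 genes by class, of which 30 were tested. The list also holds Plaur, the urokinase receptor (0.32), and F3, tissue factor (0.84), which are not proteases but are in these counts. Of the 30 tested genes, 20 were above 0 (66.7%, beside 64% of all genes) and 10 below, with a median of 0.16. None had an adjusted p below 0.05 in limma, and 4, F3 among them, had an unadjusted p below 0.05. All 5 neutrophil and mast cell proteases were lower, with a median of -0.76, and did not separate the groups. Of these, Elane, Prtn3 and Ctsg turned higher without mPGC-1α array 1, as given above. The rest of the class, the mast cell proteases Mcpt4 and Cma1, gave -1.37 (SE 0.49) and -0.76 (SE 0.33). Both had an unadjusted p below 0.05 in limma and were lowest on mPGC-1α array 3 (-3.32 and -2.67). All 4 genes of the plasminogen system were above 0, with a median of 0.26. Of these, Plat, tissue plasminogen activator, gave 0.53 (SE 0.35). Plau, urokinase, gave 0.20 (SE 0.72) with the marked spot of mPGC-1α array 3 left out, and turned to -0.57 when replicate numbers were blocked. The lysosomal protease Ctsl, cathepsin L, gave 0.01 (SE 0.25) with the same array left out, and 0.15 with the block. Klk6, a kallikrein made by oligodendrocytes, was the single tested protease of the list with at least a 2-fold difference and no overlap. Its levels were -1.39, -0.83 and -2.48 in the controls and 0.03, -0.83 and -0.36 in mPGC-1α. Control array 2 and mPGC-1α array 2 were level to 2 decimals, and the difference was 1.18 (SE 0.42, limma's adjusted p 0.684).

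The mean levels of astrocyte, oligodendrocyte and neuron genes were higher in mPGC-1α. The nearest arrays of the groups were almost level for astrocytes (0.72 and 0.73) and for neurons (-0.56 in both). The mean level of 13 tested astrocyte genes ran from 0.04 to 0.72 in the controls and from 0.73 to 1.87 in mPGC-1α, with 12 of the 13 genes higher and a median difference of 0.67. For oligodendrocytes the ranges were -1.11 to -0.04 and 0.05 to 0.89, with all 13 genes higher and a median of 0.93. For neurons they were -1.03 to -0.56 and -0.56 to 0.29, with 14 of 15 higher and a median of 0.78. None of these genes had an adjusted p below 0.05 in limma, while 6 astrocyte, 5 oligodendrocyte and 9 neuron genes had an unadjusted p below 0.05 and were higher. Over all 18222 genes tested, 622 had such an unadjusted p and were higher, and 64% were above 0. Serpina3n, Serpine2, Serpini1 and Klk6, all expressed by glia or neurons, were higher in their brightest probes beside these lists. Among the mPGC-1α arrays, Serpina3n was lowest on array 2 (-3.76), where the astrocyte list (1.87) and the neuron list (0.29) were highest. The oligodendrocyte list was highest on array 1 (0.89), as was Serpina3n (-3.43). In the controls, Serpina3n and the oligodendrocyte and neuron lists were lowest on array 3 and highest on array 2. The astrocyte list was highest there on array 3. The part of other cells' RNA in the serpin values was not tested.

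Lists of other cells overlapped between the groups. Beside their counts, 64% of all genes tested were higher. Ependymal and choroid plexus genes had mean levels of 1.01 to 1.44 in the controls and 0.60 to 1.16 in mPGC-1α, with 7 of 10 lower and a median of -0.28. Endothelial and mural genes had -0.89 to -0.75 and -0.97 to -0.78, with 9 of 11 higher and a median of 0.09. Erythrocyte genes had 2.14 to 4.18 and 2.00 to 3.95. Microglial genes had mean levels of 3.86 to 4.09 in the controls and 3.79 to 4.02 in mPGC-1α, with 7 of 13 tested genes higher (53.8%). Monocyte and macrophage genes had 1.52 to 1.99 and 1.17 to 2.10, with 11 of 16 lower and a median of -0.11. Neutrophil genes had 2.84 to 3.41 and 2.09 to 3.55, with a median of -0.08. Lymphocyte genes had -1.80 to -0.58 and -1.84 to -0.96.

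**Figure D4:**
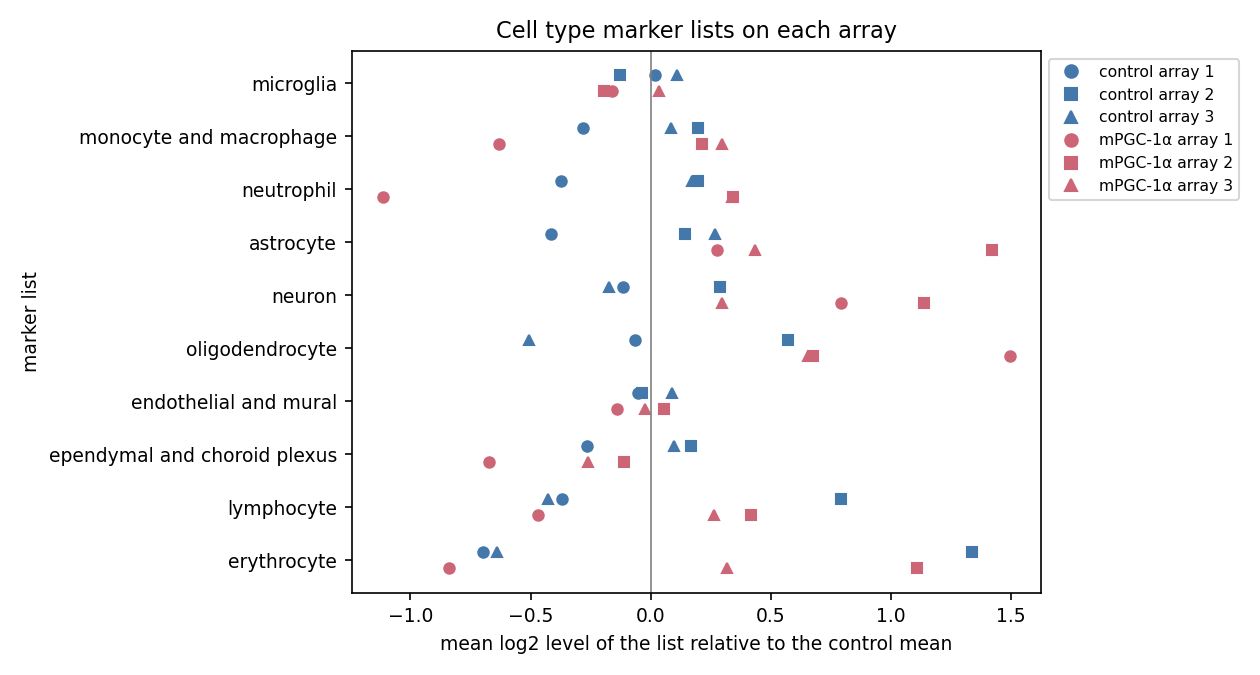
Mean level of each cell type marker list on each array, as a log2 difference from the control mean of that list (horizontal axis). Points are arrays, blue for control and red for mPGC-1α. All mPGC-1α arrays lie above all controls for astrocytes, neurons and oligodendrocytes, with the nearest arrays almost level for astrocytes and neurons. Neutrophil genes are lowest on mPGC-1α array 1.

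The differences were recomputed under other ways of processing the arrays and without each array in turn. Of 18 alternatives, 6 change only a filter or the model and left the difference of Serpinb1b as it was. The other 12 gave -2.07 to -1.05, with the smallest size under the normexp background correction, whose added offset compresses the differences of dim probes. Leaving out an array cannot turn a member whose groups do not overlap. Serpina3n ran from 0.43 to 1.19 and Serpine2 from 0.05 to 0.43. Serpinb6b ran from -0.82 to -0.11 and Serpinb6a from -0.73 to -0.20, without a change of sign. Of the 12 alternatives that moved their values, 1 turned the sign of Serpinb1a, 6 that of Serpinb9 and 9 that of Serping1, with Serpinb9 and Serping1 both near 0.

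**Figure D5:**
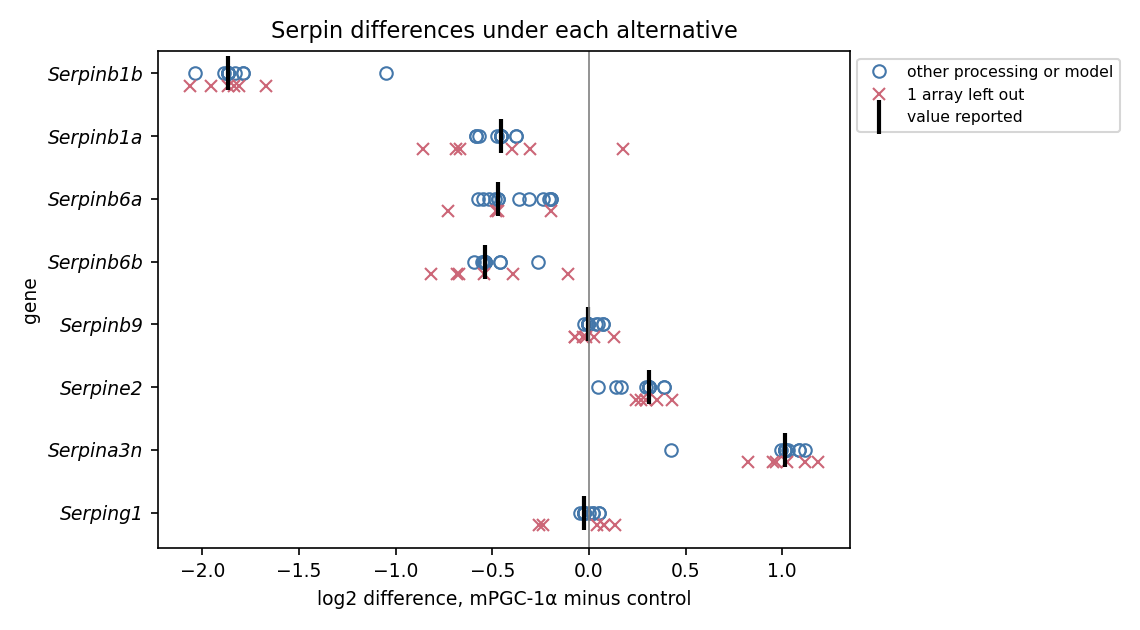
Log2 difference between mPGC-1α and control (horizontal axis) for the brightest probe of each tested serpin gene under each alternative. Black ticks are the values reported, open circles other processing or models and crosses fits without 1 array, and Serpinb1b lies between -2.07 and -1.05 and Serpina3n between 0.43 and 1.19.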

How the data were processed

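RNA of microglia selected by P2RY12 magnetic beads was hybridised to Agilent mouse arrays, 1 green channel per sample (the labels name Cy3 in one field and Cy5 in another). The deposited scanner files give the linear intensity of each spot, which the authors had background-subtracted and detrended within each array in Feature Extraction 11.5.1.1. The authors' deposited series matrix holds normalized log2 values for 46731 probes and served as an alternative.

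Log2 intensity minus the 75th percentile of each array, taken over all 56605 probes that are not controls with outlier-marked spots included, was computed in R 4.3.3 (data.table package, version 1.17.8). Marked spots were then left out and spots of a probe averaged. The percentile keeps marked spots because between 91.6% and 96% of them lie above it, and this was chosen after seeing the data. Probes entered the test when each unmarked array of one group (at least 2) was well above background and both groups had at least 2 values. Of the 40745 probes tested, 3750 had a missing value. List levels keep marked spots.

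Probes were named through their accession in RefSeq (GRCm38.p6), with 33767 of 56605 matched. The array grid is of an older build, so no probe coordinates are given, and those of the upstream windows are RefSeq's. Groups, taken from the genotype label, were compared two-sided by limma 3.58.1 (lmFit, then eBayes allowing a trend with intensity) with Benjamini-Hochberg adjustment over all probes, tested first on simulated data. The number of arrays limits the precision. For genes with several probes the one with the highest mean was used for counts. Named are all members, 8 proteases set by name, sample checks, and other serpins or proteases with at least a 2-fold difference without overlap. Serpinb1c, Serpini1, Serpinb9e, Serpinb8, Mcpt4 and Cma1 fall outside this rule and were named after their values were seen. Plaur and F3 are named as genes of the protease list that are not proteases. One other serpin is not reported here by name. Members and lists were chosen with earlier results of these data known.

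Arrays with the same replicate number deviated together (correlations of 0.25, 0.22 and 0.17, against -0.34 to 0.04 for different numbers), although the labels do not explain the numbers. The values reported come from the fit without this block, and the fit with it is given where it changes a call or a direction. Alternatives were quantile normalization, normexp (offset 50), the series matrix, other filters, the slide or replicate number as a block, no intensity trend, other percentiles and leaving out each array.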

Additional observations from a re-analysis of the deposited data

How the results depend on the processing

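The number of serpin probes other than that of Serpinb1b with an adjusted p below 0.05 in limma was 0 under every alternative run. With the replicate number as a block, 1 probe of all passed, and 0 serpin members, and the block changed no other call, while it turned Plau from 0.20 to -0.57. With the 75th percentile taken over unmarked spots only, together with the replicate block, 1720 of 40745 probes passed. Of the other serpins and the genes of the protease list 4 did, and the cause was not tested. This alternative was added after seeing the data. Leaving out 1 array gave 0 to 2102 probes. The 2102, of 39288 tested, came without control array 2, the array with the lowest Xist. Of these, 140 were higher and 1962 lower, and the other 5 fits gave 0. The alternatives moved the median of all probes between 0.01 and 0.19, against 0.08 as reported.

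Serpinb1b was -1.05 under normexp with quantile normalization. Without 1 array Serpinb1a ran from -0.86 to 0.18, Serpinb9 from -0.073 to 0.13 and Serping1 from -0.26 to 0.14. Serpinb9 changed sign under quantile normalization (0.034), the series matrix (0.044) and the percentile over unmarked spots, with and without the block (0.071 in both). Serping1 changed sign under the same settings (0.0205, 0.0206 and 0.0495) and under normexp (0.0015). Serpinb6a gave no value without mPGC-1α array 1 or 2, which left 1 unmarked spot in that group. Dim members such as Serpinb6b, Serpina3n and Serpinb2 lay nearest to background, and Serpinb2 had no measured level.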
